A study of Mus musculus with 16 samples.

Results

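The comparison described here is complete Freund's adjuvant (CFA) against saline in wild-type (WT) mice, taken as all libraries with WT titles, which are 8 of the 16 in the series. WT CFA libraries came from C57BL/6 mice aged 10 to 12 weeks that had received CFA, an oil suspension of killed mycobacteria that provokes lasting joint inflammation, by injection into the joint, and WT saline libraries from like mice that had received the vehicle, named saline in the titles. Ganglia were taken 14 days after the injection from the injected side, at lumbar levels 4 to 6. Each library pooled 6 ganglia from 2 mice, and each group held 4 libraries, so p-values measure the spread between pools of animals. The other 8 libraries came from TrkA-C knock-in (KI) mice with the same injections. The labels do not describe the knock-in construct, and the KI libraries enter here in the estimate of spread and in a comparison of the CFA response between genotypes.

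Dorsal root ganglia hold the cell bodies of sensory neurons, wrapped by satellite glia and traversed by myelinating and non-myelinating Schwann cells, with resident macrophages and vessels between them. The nerve terminals of some of these neurons lie in the joint, while the RNA measured here is that of the whole lumbar ganglion, to which neurons of skin and muscle contribute as well. In inflamed joints, prostaglandins and cytokines of the interleukin 6 family are known to sensitise nociceptors, the neurons that signal tissue damage, and nerve injury is known to induce a separate set of genes in the ganglion that includes Atf3, Sprr1a and Npy. Interferons act through a transcription factor complex that includes Stat2 and Irf9 on genes of antiviral defence and antigen presentation. In whole ganglia, fewer cells of a type and less RNA per cell cannot be told apart.

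Values are TMM-normalised CPM (counts scaled to a common library size), and fold changes are log2 ratios of WT CFA over WT saline with their standard error (SE). Total counts per library ran from 28490746 to 34348881 in WT CFA and from 22742209 to 31816832 in WT saline, so 3 counts correspond to between 0.0873 and 0.132 CPM. The genotype tag of WT CFA 1 reads knock-in, against its title. Ntrk3, which encodes the neurotrophin-3 receptor TrkC, stood at 48.4 CPM in WT CFA 1, within the WT range of 29.3 to 61.4 CPM and below the KI range of 99.1 to 138 CPM. WT CFA 3 and WT saline 4 stood apart from the other 6 WT libraries on the first 2 principal components, which held 28.7% and 24.4% of the variance. WT CFA 3 had a count in 16556 genes, against 17323 to 17770 in the other WT libraries. The source names carry numbers, 4 to 7 in WT CFA and 1, 2, 8 and 9 in WT saline. The labels do not say what these numbers mark, but libraries with the numbers 1, 2, 4 and 5 (WT CFA 1 and 2, WT saline 1 and 2) differed from those with the numbers 6 to 9 in 1360 genes (8.77% of those tested, edgeR adjusted p under 0.05). These values average over both injections, and WT CFA 3 and WT saline 4 both belong to the numbers 6 to 9. The neuronal tubulin gene Tubb3, a defining marker of the ganglion, stood at 2938 to 3262 CPM.

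CFA arthritis left most of the measured transcriptome within narrow limits at day 14. Of 15507 genes tested, 0 (0.00%) passed an adjusted p of 0.05 in edgeR's quasi-likelihood test with Benjamini-Hochberg adjustment, and the smallest adjusted p was 0.141, for Sbno2. Unadjusted p-values under 0.05 were found for 1079 genes (6.96%), 547 higher (3.53%) and 532 lower (3.43%) in WT CFA. DESeq2 called 24 of the same 15507 genes (0.155%), 19 higher and 5 lower, and limma-voom with quality weights called 1 (0.00645%), Sbno2, at an adjusted p of 0.0489. Every WT CFA library lay above every WT saline library for 238 genes (1.53%) and below for 230 (1.48%). No gene is therefore described as changed below unless the tool that called it is named.

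The same fit bounds how large the effects of CFA could have been. A gene was taken as flat where the 95% interval of its fold change lay wholly between 1.5-fold lower and 1.5-fold higher in WT CFA, and 11758 of 15507 genes (75.8%) met this. The median size of the fold change was 0.09 on the log2 scale and the median SE 0.10. Precision followed the level of the gene. Of 2341 genes with a mean above 100 CPM, 2324 (99.3%) were flat, and of 7351 genes between 10 and 100 CPM, 7194 (97.9%). Between 1 and 10 CPM 2240 of 3997 (56.0%) were flat, and below 1 CPM 0 of 1818, where the interval of the median gene reached 2.01-fold to either side. With a band of 1.2-fold, 5881 genes were flat. Fold changes beyond 1.5-fold were fitted for 757 genes and beyond 2-fold for 200, and the plot of all genes shows these at low counts for the most part.

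**Figure D1:**
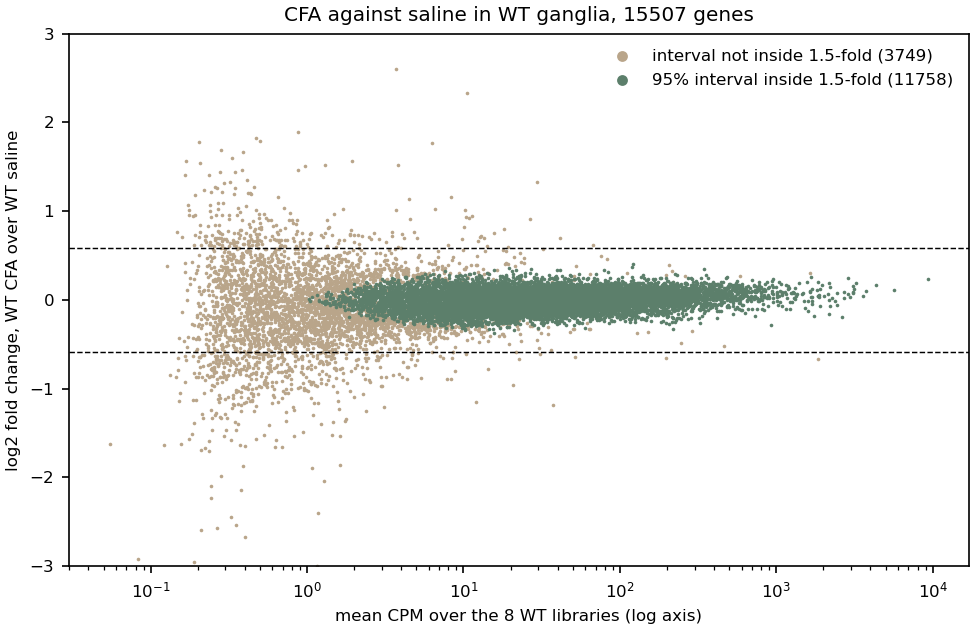
Each point is 1 of 15507 genes, with its mean CPM over the 8 WT libraries on a log axis and its log2 fold change, WT CFA over WT saline, on the other axis. The dashed lines mark 1.5-fold, the 11758 green points have a 95% interval inside it, and 14 genes lie beyond the plotted fold change of 3.

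Sbno2 had the smallest p. It encodes a transcriptional regulator that in immune cells acts downstream of interleukin 10 and Stat3 (Entrez 216161, chromosome 10, 80056992 to 80106108, build mm10). Sbno2 had 63.5, 61.6, 59.7 and 57.4 CPM in WT CFA 1 to 4, against 48.3, 49.4, 51.5 and 48.2 CPM in WT saline 1 to 4. The groups did not overlap, the libraries of each group lay close together, and the difference was small. The log2 fold change of Sbno2 was 0.29 ± 0.05 (SE), or 1.23-fold with a 95% interval of 1.14 to 1.32, so that Sbno2 was both the gene with the clearest difference and flat by the 1.5-fold criterion. DESeq2 (adjusted p 0.00011) and limma-voom called Sbno2 as higher in WT CFA.

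Pappa and Prokr2 showed larger differences. Pappa, a secreted protease that frees insulin-like growth factors from their binding proteins, had 28.3, 38.9, 43.9 and 26.95 CPM in WT CFA 1 to 4, against 16.4, 17.5, 18.7 and 20.7 CPM in WT saline 1 to 4. Its log2 fold change was 0.91 ± 0.17, with an edgeR adjusted p of 0.233. Prokr2, a receptor for prokineticins carried by peptidergic nociceptors, had 18.8, 22.4, 27.4 and 20.2 CPM in WT CFA, against 16.2, 14.9, 15.7 and 13.7 CPM in WT saline, a log2 fold change of 0.56 ± 0.11 (edgeR adjusted p 0.233). In both genes the lowest WT CFA library lay above the highest WT saline library, and DESeq2 called both as higher. Ptpn9, a tyrosine phosphatase, had a mean of 131 ± 7.52 CPM in WT CFA and 109 ± 5.07 CPM in WT saline (SD, n = 4 each), and Ahr, the ligand-activated transcription factor known as the aryl hydrocarbon receptor, 21.9 ± 1.77 and 17.0 ± 1.15 CPM. The log2 fold changes were 0.26 ± 0.05 for Ptpn9 and 0.36 ± 0.07 for Ahr, without overlap of the groups in either gene, and DESeq2 called both.

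Tfrc, the transferrin receptor by which cells take up iron, had 116, 137, 143 and 158 CPM in WT CFA 1 to 4, against 100.1, 97.8, 112 and 109 CPM in WT saline 1 to 4. The groups did not overlap, the log2 fold change was 0.40 ± 0.08 (edgeR adjusted p 0.277), and DESeq2 called Tfrc as higher. Of 9 tested genes of iron handling, 2 were higher and 1 lower at an unadjusted p under 0.05, against 3.53% and 3.43% of all genes. The lower one was Trf, transferrin itself, with 24.7 ± 4.41 CPM in WT CFA and 33.9 ± 4.53 CPM in WT saline (log2 fold change -0.46 ± 0.16, no overlap). The ferritin heavy chain Fth1 was flat at -0.13 ± 0.07.

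The smallest p-values also included those of Irgm2 and Tap1, which are given with the interferon genes below, and of Fam222a, whose function is little known. Fam222a had 19.1, 21.8, 25.1 and 19.2 CPM in WT CFA 1 to 4, against 14.6, 15.6, 13.1 and 14.2 CPM in WT saline 1 to 4, without overlap (log2 fold change 0.56 ± 0.12). The plot of genes with the smallest p-values shows 9 of the first 10, all higher in WT CFA.

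**Figure D2:**
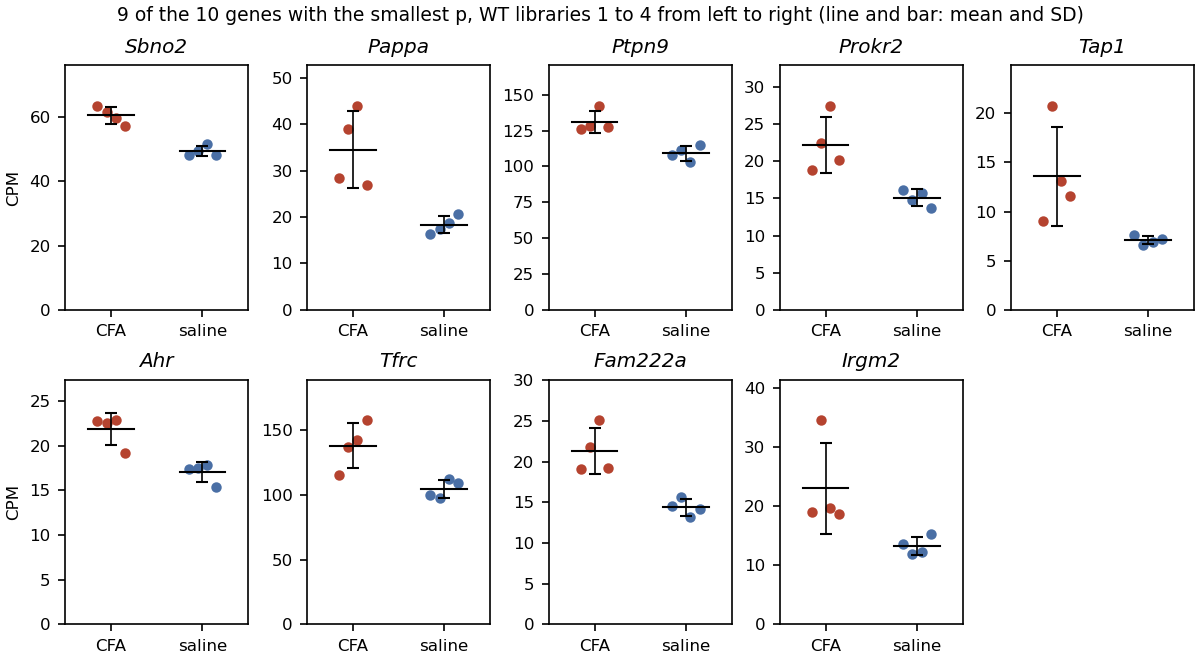
CPM of 9 of the 10 genes with the smallest p in each of the 4 WT CFA libraries (left, red) and 4 WT saline libraries (right, blue), with the mean and SD. In all 9 genes the lowest WT CFA value lies above the highest WT saline value, and axes start at 0.

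Among genes lower in WT CFA, 3 belong to retinoid handling or lie near it in function. Cyp26b1, an enzyme that breaks down retinoic acid, had 3.47, 3.59, 3.39 and 4.27 CPM in WT CFA 1 to 4, against 5.48, 5.85, 5.44 and 5.89 CPM in WT saline 1 to 4. Stra6, a receptor for the retinol carrier of plasma, had 2.74, 2.04, 0.68 and 1.99 CPM in WT CFA, against 4.95, 3.98, 4.39 and 4.03 CPM in WT saline. Neither gene overlapped between the groups, the log2 fold changes were -0.62 ± 0.14 for Cyp26b1 and -1.21 ± 0.32 for Stra6, and DESeq2 called both as lower. Rarb, a retinoic acid receptor that retinoic acid is known to induce, stood at 4.04 ± 0.867 CPM in WT CFA and 5.19 ± 0.22 CPM in WT saline (log2 fold change -0.36 ± 0.17, unadjusted p 0.0452). These 3 genes were put side by side after their values had been seen, and no list of retinoid genes was examined. Crabp2, a binding protein for retinoic acid, gave -0.56 ± 0.27 with overlapping groups.

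Whether other genes with the smallest p-values among the lower ones share a function was not tested. Wdr92, which takes part in the assembly of dynein arms, averaged 17.4 ± 1.47 CPM in WT CFA and 26.1 ± 6.67 CPM in WT saline (log2 fold change -0.59 ± 0.14, DESeq2 adjusted p 0.0254), and 36.1 CPM in WT saline 4 exceeded the other WT saline libraries. Laptm4a, a lysosomal membrane protein, averaged 193 ± 15.8 and 242 ± 33.4 CPM (-0.33 ± 0.08) in the same order and was called by DESeq2. The matrix genes Ecm2 (-0.73 ± 0.20) and Dcn (-0.65, unadjusted p 0.00208), which encodes the proteoglycan decorin, were lower in every WT CFA library than in any WT saline library. Pkdcc, a secreted kinase of connective tissue, was lower likewise (-0.66 ± 0.18). Extracellular matrix genes as a list did not share this direction. Of 27 tested, 15 had a positive and 12 a negative log2 fold change, with a median of 0.01. At an unadjusted p under 0.05 in edgeR 1 was higher and 1 (Dcn) lower, near the 3.53% and 3.43% of all genes. The higher one was Postn, the matrix protein periostin, at 0.29 ± 0.13 without overlap.

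Interferon-stimulated genes lay higher in WT CFA across most of their list. Of 45 tested genes on this list, 32 were higher at an unadjusted p under 0.05 and 0 were lower, beside 3.53% and 3.43% of all genes tested. The WT CFA libraries all lay above the WT saline libraries for 10 of the 45, beside 1.53% of all genes. The median log2 fold change was 0.65, against -0.01 over all genes, and 43 of 45 members had a positive one. None passed in edgeR, DESeq2 called 4 of the 45, Irgm2, Igtp and Usp18 among them, and only 5 of the 45 were flat. This list had been seen to shift in these data before, and its counts are not independent evidence.

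The shift was unequal between libraries, as the heat map of interferon genes shows. The mean log2 CPM of the 45 genes was 2.70, 3.97, 3.17 and 2.88 in WT CFA 1 to 4, against 2.64, 2.43, 2.44 and 2.87 in WT saline 1 to 4. WT CFA 2 stood highest and WT CFA 3 next. WT CFA 4 lay barely above WT saline 4, the highest WT saline library, and WT CFA 1 lay inside the range of the WT saline libraries. Without WT CFA 2 the median of the list was 0.30, and 20 of the 45 genes were higher at an unadjusted p under 0.05. Without WT CFA 3 and WT saline 4, the libraries that stood apart, the median was 0.80 and the count 35. The median was positive within both sets of source numbers, 0.91 in numbers 1, 2, 4 and 5 and 0.35 in numbers 6 to 9.

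**Figure D3:**
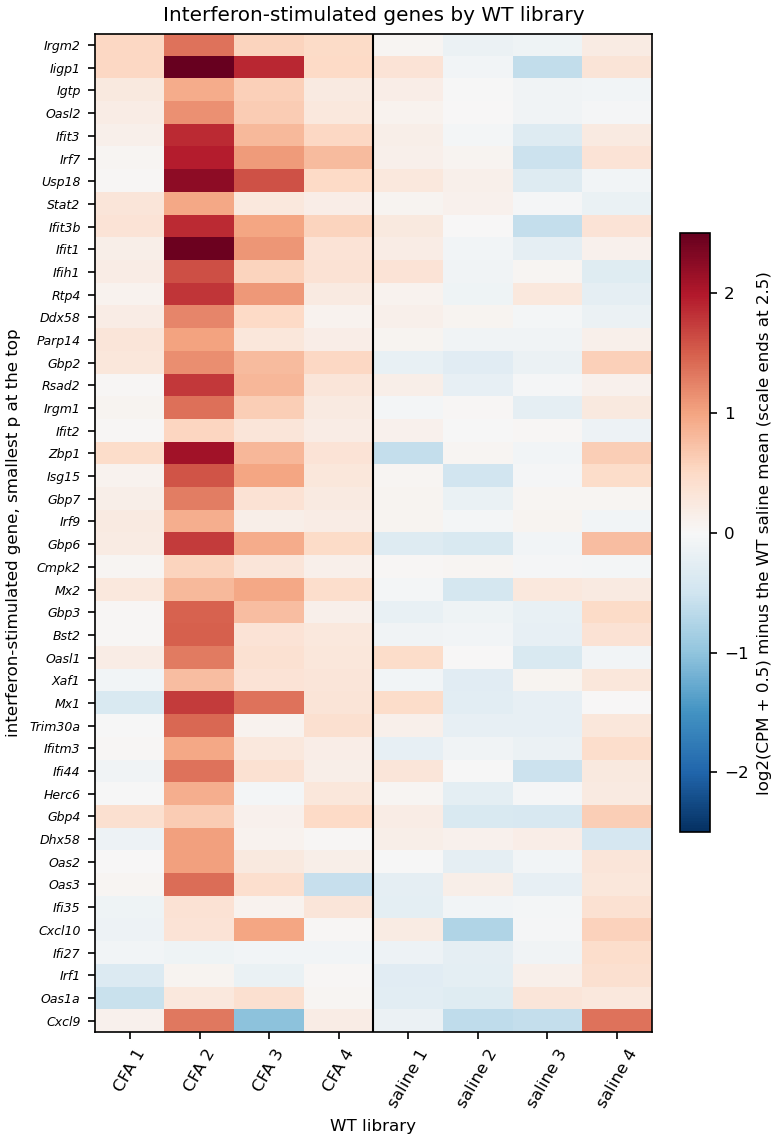
44 of the 45 interferon-stimulated genes (rows, smallest p at the top) in the 4 WT CFA libraries (left of the line) and 4 WT saline libraries, coloured by log2(CPM + 0.5) minus the mean of the WT saline libraries. The column of WT CFA 2 is the reddest, followed by WT CFA 3, while WT CFA 1 and 4 show smaller excesses.

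The transcription factors of the interferon response came first in this order of roles. Stat2 had 85.5, 135, 83.3 and 78.1 CPM in WT CFA, against 72.9, 74.4, 68.2 and 62.0 CPM in WT saline (0.46 ± 0.13). Irf9, its partner on DNA, had a log2 fold change of 0.41 ± 0.14. In these 2 genes the groups did not overlap, and WT CFA 2 was the highest library. Irf7, which amplifies interferon production, had 5.15, 20.9, 11.0 and 8.96 CPM in WT CFA and 5.52, 5.22, 3.26 and 6.46 CPM in WT saline, and WT CFA 1 fell inside the saline range. Irf1, induced chiefly by interferon gamma, was flat with a log2 fold change of -0.12 ± 0.15. The interferon genes Ifnb1 and Ifng themselves were below the count filter.

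Effector genes followed. Irgm2, an immunity-related GTPase (Entrez 54396, chromosome 11, 58214977 to 58222783), had 19.1, 34.6, 19.7 and 18.6 CPM in WT CFA 1 to 4, against 13.6, 11.9, 12.2 and 15.3 CPM in WT saline 1 to 4, without overlap (log2 fold change 0.79 ± 0.18). Iigp1, of the same family, had 4.14, 19.4, 11.4 and 4.04 CPM in WT CFA, against 3.61, 2.59, 1.61 and 3.53 CPM in WT saline, with the largest fold change of the list (1.77 ± 0.42). Igtp, its neighbour in that family, averaged 27.3 ± 6.64 CPM in WT CFA and 18.8 ± 1.56 CPM in WT saline. Each of these GTPases was higher in every WT CFA library, and for Iigp1 WT CFA 1 and 4 exceeded the highest WT saline library only narrowly. Irgm2 and Igtp resemble each other in sequence, as do Ifit3 and Ifit3b, so their counts may share reads. Ifit1, a sensor of foreign RNA, had 18.4, 92.5, 36.4 and 21.3 CPM in WT CFA and 19.0, 15.9, 14.1 and 17.9 CPM in WT saline (1.33 ± 0.38), and WT CFA 1 lay below WT saline 1. Oasl2, of the oligoadenylate synthetase family, averaged 81.1 ± 26.0 CPM in WT CFA and 53.0 ± 2.90 CPM in WT saline without overlap. The chemokines Cxcl9 and Cxcl10, which interferon gamma induces, overlapped widely, at 0.20 ± 0.89 and 0.35 ± 0.35.

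Promoters of interferon-stimulated genes often carry the interferon-stimulated response element, bound by a complex that includes Stat2 and Irf9. The letters TTTC, any 2 bases, and TTTC again were searched on both strands in RefSeq windows from 250 bases before to 50 bases after each gene start (GRCm38.p6). They were found in 20 of the 32 list members with a window (62.5%) and in 441 of 12233 tested genes (3.61%). Among members of the list whose groups did not overlap, Irgm2, Igtp, Stat2 and Gbp7 had a match, and their windows are printed because these genes were higher in all WT CFA libraries. Capitals mark the match, written 5′ to 3′ on the strand of the gene.
Irgm2, chr11:58214727-58215026, plus strand: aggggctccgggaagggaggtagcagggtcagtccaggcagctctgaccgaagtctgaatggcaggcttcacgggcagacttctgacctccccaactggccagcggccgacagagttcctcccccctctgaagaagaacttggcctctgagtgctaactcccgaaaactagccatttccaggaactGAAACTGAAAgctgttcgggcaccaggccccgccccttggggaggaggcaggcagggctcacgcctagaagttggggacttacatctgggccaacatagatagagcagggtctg
Igtp, chr11:58199306-58199605, plus strand: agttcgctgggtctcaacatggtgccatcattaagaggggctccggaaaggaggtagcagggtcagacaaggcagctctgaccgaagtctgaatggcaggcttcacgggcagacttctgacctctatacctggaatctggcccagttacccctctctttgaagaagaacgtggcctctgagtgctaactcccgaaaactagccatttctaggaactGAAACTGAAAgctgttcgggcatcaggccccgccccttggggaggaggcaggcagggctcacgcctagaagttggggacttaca
Stat2, chr10:128270248-128270547, plus strand: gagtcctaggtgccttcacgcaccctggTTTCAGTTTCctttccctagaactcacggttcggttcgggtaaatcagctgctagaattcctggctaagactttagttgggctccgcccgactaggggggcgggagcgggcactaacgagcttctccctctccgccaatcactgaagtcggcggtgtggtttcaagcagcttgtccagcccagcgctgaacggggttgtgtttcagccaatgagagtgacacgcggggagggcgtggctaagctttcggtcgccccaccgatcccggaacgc
Gbp7, chr3:142530086-142530385, plus strand: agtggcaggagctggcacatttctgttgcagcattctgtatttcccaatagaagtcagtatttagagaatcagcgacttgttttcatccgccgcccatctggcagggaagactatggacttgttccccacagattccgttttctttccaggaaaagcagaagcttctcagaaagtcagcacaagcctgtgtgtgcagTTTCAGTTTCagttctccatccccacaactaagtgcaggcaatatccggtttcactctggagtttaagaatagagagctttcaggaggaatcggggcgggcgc
The matches start 64 bases before the gene start in Irgm2, 34 in Igtp, 222 in Stat2 and 53 in Gbp7. In Irgm2 and Igtp the letters stand on the opposite strand of the gene. Gbp7, a guanylate-binding GTPase, had 17.0, 38.4, 20.0 and 18.0 CPM in WT CFA 1 to 4, against 16.3, 13.6, 16.0 and 16.0 CPM in WT saline 1 to 4. A match is a description of these letters and not of binding. Oasl2 and Irf9 of the interferon list, which did not overlap between groups either, have no match in their windows. The same holds for Tap1, Psmb9 and H2-Q4 of the antigen presentation list. Not all of the 10 interferon list members without overlap are covered by the windows named here.

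Genes of antigen presentation lay higher to a smaller degree. Of 21 tested, 9 were higher at an unadjusted p under 0.05 and 0 lower, beside 3.53% and 3.43% of all genes. The groups did not overlap in 4, all higher in WT CFA (1.53% of all genes), and 13 were flat (75.8% of all genes). The median log2 fold change was 0.22, and 0.11 without WT CFA 2. Tap1, the peptide pump that loads class I molecules (Entrez 21354, chromosome 17, 34187556 to 34197225), had 9.04, 20.7, 13.1 and 11.6 CPM in WT CFA 1 to 4, against 7.64, 6.61, 6.96 and 7.26 CPM in WT saline 1 to 4. Its log2 fold change was 0.93 ± 0.19 (edgeR adjusted p 0.257). DESeq2 called Tap1, and so did edgeR without WT CFA 1, the library with the discordant tag (1.09, adjusted p 0.0428). That fit called 1 other gene, Tfrc (0.48, adjusted p 0.0428).

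Within the class I pathway, the differences were unequal. Psmb9, an immunoproteasome subunit whose gene lies next to Tap1, averaged 4.38 ± 1.16 CPM in WT CFA and 2.57 ± 0.54 CPM in WT saline (0.77 ± 0.19), and Nlrc5, the transactivator of class I genes, 6.06 ± 2.55 and 3.56 ± 0.354 CPM (0.77 ± 0.21). H2-Q4, a non-classical class I gene whose reads may be shared with near copies, had 12.6, 21.2, 13.6 and 19.8 CPM in WT CFA, against 9.16, 8.82, 11.2 and 12.5 CPM in WT saline. These 3 genes did not overlap between the groups. The classical heavy chain H2-K1 (0.34 ± 0.11) and the light chain B2m (0.29 ± 0.13) were flat, but close to the 1.5-fold limit, and their groups overlapped through WT saline 4. Without WT saline 4 B2m gave 0.46 and H2-K1 0.43, and neither was flat. B2m lost the flat call in 6 of 17 alternatives and H2-K1 in 5 of 17. Class II genes stayed level, with Cd74 at 0.09 ± 0.18 and H2-Aa at 0.04 ± 0.19, both flat.

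The mean level of injury-associated genes was higher in WT CFA 1 and 2 than in WT CFA 3 and 4. Of 27 tested, 8 were higher at an unadjusted p under 0.05 and 0 lower (beside 3.53% and 3.43% of all genes), and 3 lay higher without overlap (1.53% of all genes). Flat members numbered 16 of 27, beside 75.8% of all genes, with a median log2 fold change of 0.15. The mean log2 CPM of the list was 4.88, 4.82, 4.08 and 4.07 in WT CFA 1 to 4, against 3.91, 4.31, 3.93 and 4.47 in WT saline 1 to 4. Both higher values belong to the libraries with source numbers 4 and 5, and the median was 0.32 within source numbers 1, 2, 4 and 5 and -0.07 within numbers 6 to 9.

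Single genes of this list made the split plainer. Atf3, a transcription factor induced in axotomised neurons, had 27.2, 32.4, 8.94 and 10.1 CPM in WT CFA 1 to 4, against 7.53, 16.1, 8.88 and 14.0 CPM in WT saline 1 to 4 (log2 fold change 0.75 ± 0.36, unadjusted p 0.0503). Sprr1a, a cytoskeletal protein of growing axons, had 37.7, 30.7, 0.46 and 1.21 CPM in WT CFA, against 1.73, 7.84, 1.17 and 2.93 CPM in WT saline (2.33 ± 1.04). Cckbr, a cholecystokinin receptor that appears in injured neurons, had 5.66, 5.32, 0.39 and 0.23 CPM in WT CFA, against 0.39, 1.26, 0.57 and 1.67 CPM in WT saline (1.56 ± 0.79). In each of the 3 genes WT CFA 1 and 2 exceeded every other WT library, and WT CFA 3 and 4 lay within or below the range of the WT saline libraries. In WT CFA 3 Sprr1a, and in WT CFA 4 Cckbr, was below every WT saline library.

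Npy, Jun and Vgf were the injury-list members without overlap. Npy, a neuropeptide scarce in intact ganglia, had 12.9, 7.87, 2.28 and 2.25 CPM in WT CFA 1 to 4, against 0.67, 1.14, 0.22 and 2.09 CPM in WT saline 1 to 4. Its log2 fold change of 2.60 ± 0.75 was the largest positive one of all genes tested (unadjusted p 0.00259), and WT CFA 3 and 4 were barely above WT saline 4. Jun, the transcription factor partner of Atf3, averaged 135 ± 13.1 CPM in WT CFA and 104 ± 11.1 CPM in WT saline (0.37 ± 0.09, unadjusted p 0.000992). Vgf, a secreted peptide precursor regulated by neurotrophins, averaged 233 ± 15.2 CPM in WT CFA and 178 ± 23.5 CPM in WT saline (0.39 ± 0.09, DESeq2 adjusted p 0.0484). Unlike Atf3, Jun and Vgf were higher in all 4 WT CFA libraries. Gal, the neuropeptide galanin and another classical injury gene, overlapped fully (-0.13 ± 0.21), and the growth cone gene Gap43 was flat (0.08 ± 0.08).

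**Figure D4:**
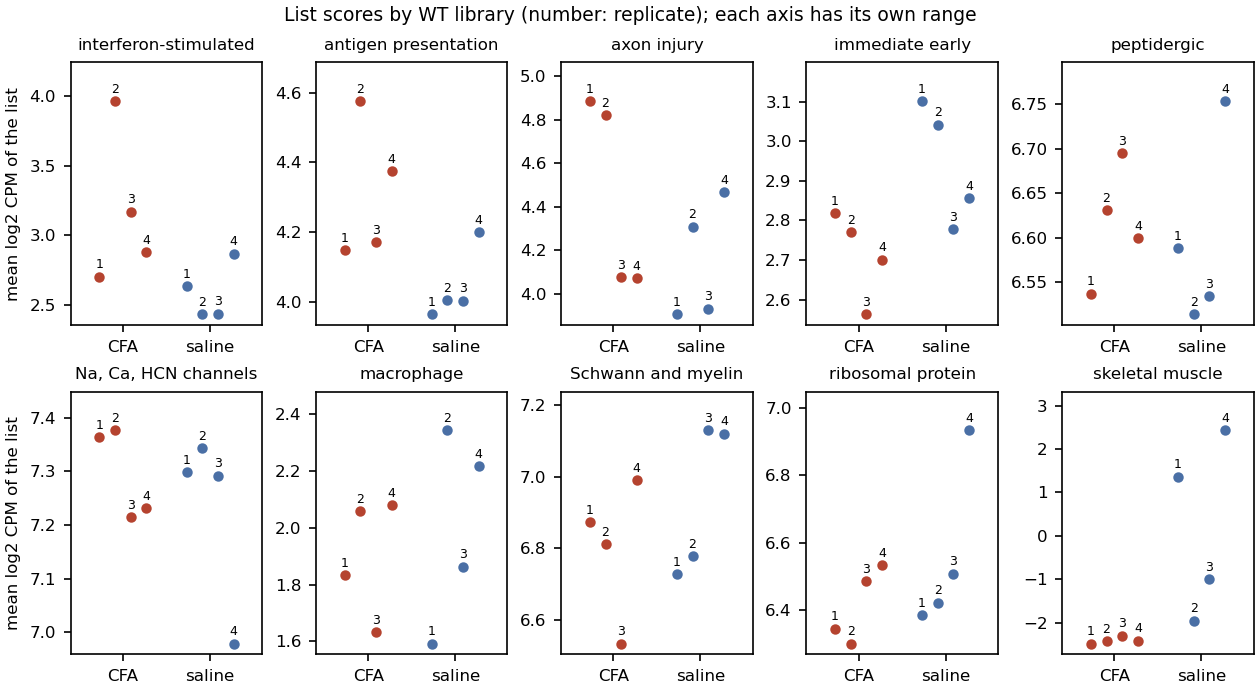
Mean log2 CPM of 10 gene lists in each WT CFA library (left, red) and WT saline library (right, blue), numbered by replicate, with an axis range of its own for each list. Interferon-stimulated genes are highest in WT CFA 2, injury genes in WT CFA 1 and 2, and ribosomal protein and skeletal muscle genes in WT saline 4.

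Immediate early genes, which neurons and other cells induce within minutes of stimulation or handling, lay lower in WT CFA. Of 18 tested, 6 were lower at an unadjusted p under 0.05 and 0 higher, beside 3.43% and 3.53% of all genes. Of the 18, 9 were flat (75.8% of all genes), and the groups overlapped in all 18, where 1.48% of all genes lay lower without overlap. The median log2 fold change was -0.26, and 16 of 18 members had a negative one. Fos had 3.91, 3.52, 3.24 and 3.66 CPM in WT CFA 1 to 4, against 7.88, 5.85, 5.13 and 3.80 CPM in WT saline 1 to 4 (-0.66 ± 0.18, unadjusted p 0.0019). Egr1 had 10.3, 12.7, 8.94 and 10.7 CPM in WT CFA, against 33.2, 21.5, 8.70 and 9.19 CPM in WT saline (-0.77 ± 0.30). The WT CFA libraries were alike in both genes, while WT saline 1 was the highest and WT saline 2 the next highest in both. Without WT saline 1, 2 of the 18 genes were lower at an unadjusted p under 0.05, and without WT CFA 3, 1.

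Peptidergic nociceptor genes, those of neurons that release inflammatory peptides from their endings, stayed level. Of 13 tested, 12 were flat and the exception was Prokr2, with a median log2 fold change of -0.04 over the list. Flat were 75.8% of all genes, 97.9% of those between 10 and 100 CPM and 99.3% of those above 100 CPM. A high flat share is thus not particular to this list. Calca, which encodes the vasodilator peptide CGRP, had 1057, 1107, 1299.7 and 1242 CPM in WT CFA 1 to 4, against 1108, 1025, 1123 and 1792 CPM in WT saline 1 to 4. The groups overlapped, the fitted fold was 0.932 with a 95% interval of 0.774 to 1.12, and WT saline 4 was the highest library. Tac1, the precursor of substance P, averaged 278 ± 23.3 CPM in WT CFA and 284 ± 55.3 CPM in WT saline, a fold of 0.977 (0.837 to 1.14). Trpv1, the heat and capsaicin channel, averaged 269 ± 14.7 and 276 ± 16.6 CPM in the same order, a fold of 0.976 (0.851 to 1.12). All 3 genes were flat, with full overlap of the groups. Without WT saline 4, Calca and Tac1 took small positive log2 fold changes, 0.12 and 0.11.

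Neurotrophin receptors stayed level. Ngfr, the p75 receptor, gave a fold of 1.06 (0.975 to 1.15), and Ntrk2, which encodes TrkB, a log2 fold change of 0.00 ± 0.09. Ntrk3 averaged 49.9 ± 7.89 CPM in WT CFA and 45.0 ± 11.4 CPM in WT saline (0.15 ± 0.15). These 3 receptors were flat. Ret, the signalling receptor for the GDNF family, averaged 1213 ± 46.2 CPM in WT CFA and 1080 ± 89.8 CPM in WT saline without overlap, a small difference of 0.17 ± 0.06.

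Among the ligands, Bdnf, which peptidergic neurons release, averaged 59.1 ± 13.8 CPM in WT CFA and 45.3 ± 11.7 CPM in WT saline (0.39 ± 0.16, unadjusted p 0.0257). The groups overlapped. Over the 15 tested genes of the neurotrophin and GDNF families, 10 were flat (75.8% of all genes), 2 were higher and 4 lower at an unadjusted p under 0.05 (beside 3.53% and 3.43% of all genes), and the median was -0.07. The groups did not overlap in 4, of which 2 were higher and 2 lower (beside 1.53% and 1.48% of all genes). The smallest p of the list was that of Gfra4, a GDNF family receptor, which was lower (-0.29, unadjusted p 0.00546 in edgeR).

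Non-peptidergic nociceptor genes lay slightly higher, within the flat band. Of 14 tested, 5 were higher at an unadjusted p under 0.05 (3.53% of all genes) and 4 lay higher without overlap (1.53%). Flat members numbered 13 (75.8% of all genes, 97.9% between 10 and 100 CPM, 99.3% above 100 CPM). The median log2 fold change was 0.16, and 0.08 without WT saline 4. Scn11a, the sodium channel Nav1.9, averaged 752 ± 24.2 CPM in WT CFA and 646 ± 80.5 CPM in WT saline (0.22 ± 0.07), and Mrgprd, a receptor of skin-innervating fibres, 207 ± 6.13 and 183 ± 21.3 CPM (0.18 ± 0.07). P2rx3, the ATP-gated channel of this class, gave 0.11 ± 0.05. In Scn11a and Mrgprd, WT saline 4 was the lowest library, at 528 and 152 CPM.

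Ion channels of excitability were flat with few exceptions. All 21 tested sodium, calcium and HCN channel genes and all 27 potassium channel genes were flat, and 18 of 19 genes of the TRP, Piezo, ASIC and P2X families, beside 75.8% of all genes, 97.9% of those between 10 and 100 CPM and 99.3% of those above. Scn10a, the nociceptor sodium channel Nav1.8, had 1565, 1517, 1471 and 1452 CPM in WT CFA 1 to 4, against 1394, 1403, 1341 and 1109.6 CPM in WT saline 1 to 4, a fold of 1.14 (95% interval 1.04 to 1.25). Trpa1, the irritant receptor, had 79.1, 98.9, 106 and 85.5 CPM in WT CFA, against 76.6, 68.5, 78.0 and 73.9 CPM in WT saline, a fold of 1.24 (1.10 to 1.41). These 2 genes did not overlap between the groups, were higher in WT CFA by little, and did not pass the test (edgeR adjusted p 0.681 and 0.516). Among sodium, calcium and HCN channel genes 2 lay higher and 1 lower without overlap, and among potassium channel genes 1 and 1. In the TRP, Piezo, ASIC and P2X families 1 lay higher and 0 lower (beside 1.53% and 1.48% of all genes). Scn9a, the Nav1.7 channel, the mechanosensor Piezo2 and the acid sensor Asic3 overlapped, at 0.16 ± 0.09, 0.18 ± 0.11 and 0.10 ± 0.07. The target of gabapentin, Cacna2d1, gave 0.11 ± 0.08.

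Of 17 tested neuropeptide and opioid genes, 11 were flat (75.8% of all genes), and Npy was the only one with an unadjusted p under 0.05 (6.96% of all genes). The mu opioid receptor Oprm1 averaged 32.3 ± 4.45 CPM in WT CFA and 28.6 ± 3.36 CPM in WT saline (0.17 ± 0.11). All 15 pan-neuronal genes were flat, with a median of 0.09. So were 15 of 16 A-fibre and proprioceptor genes (75.8% of all genes, 97.9% between 10 and 100 CPM, 99.3% above 100 CPM). The exception, Pvalb, a calcium buffer of proprioceptors, had 40.0, 44.3, 47.2 and 45.1 CPM in WT CFA 1 to 4, against 46.0, 45.0, 51.4 and 80.0 CPM in WT saline 1 to 4. WT saline 4 stood above the rest, and the groups overlapped (log2 fold change -0.33 ± 0.19).

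**Figure D5:**
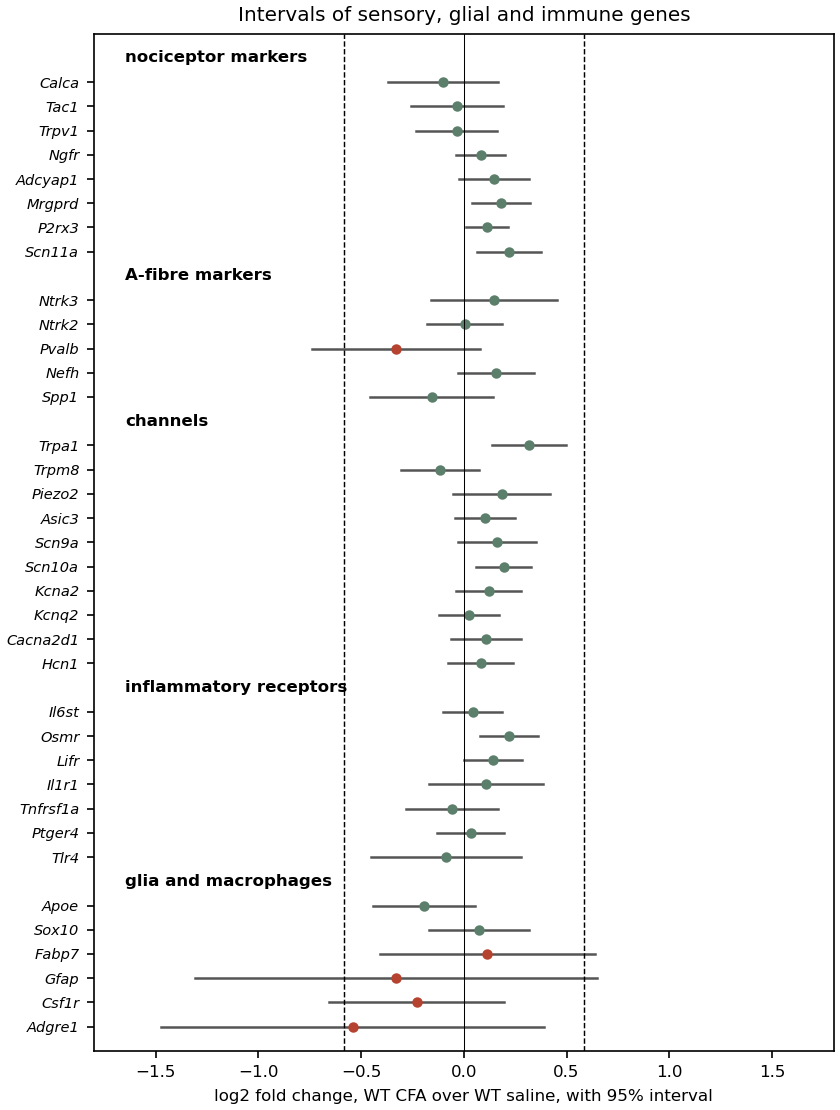
Log2 fold change (WT CFA over WT saline, points) with its 95% interval (lines) for sensory, glial and immune genes picked to show their lists. Green points have an interval inside 1.5-fold (dashed lines), and the red points, Pvalb, Fabp7, Gfap, Csf1r and Adgre1, have a wider interval.

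Immune cell markers and cytokines showed no shared excess in WT CFA. Of 20 tested macrophage genes, 0 had an unadjusted p under 0.05 in either direction (6.96% of all genes). Flat members numbered 4 (75.8% of all genes), and the median log2 fold change was -0.13. Csf1r, the growth factor receptor of macrophages, had 12.0, 11.5, 7.45 and 14.0 CPM in WT CFA 1 to 4, against 11.1, 14.8, 13.1 and 13.9 CPM in WT saline 1 to 4. Adgre1, the F4/80 antigen, had 3.05, 3.42, 2.39 and 3.00 CPM in WT CFA, against 2.44, 10.6, 1.44 and 2.55 CPM in WT saline, where WT saline 2 stood alone. For 16 of the 20 macrophage genes the interval reached beyond 1.5-fold, so a difference of that size was not excluded. Neutrophil markers summed to 39.5, 16.5, 14.1 and 9.72 CPM in WT CFA and to 8.89, 24.2, 9.37 and 42.1 CPM in WT saline, so both groups spanned the same range. The cytokines Il1b, Il6 and Tnf were below the count filter.

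Of 19 tested cytokine and chemokine genes, 1 was higher and 3 lower at an unadjusted p under 0.05 (beside 3.53% and 3.43% of all genes), and 7 were flat (75.8% of all genes). Ccl2, the chemokine that attracts monocytes, had 1.11, 0.90, 0.64 and 1.15 CPM in WT CFA 1 to 4, against 1.48, 1.71, 1.65 and 1.48 CPM in WT saline 1 to 4 (-0.73 ± 0.25, unadjusted p 0.0102), without overlap. Some of the receptors through which joint inflammation can act on neurons had narrow intervals. Il6st, the gp130 subunit shared by interleukin 6 family receptors, averaged 551 ± 37.0 CPM in WT CFA and 535 ± 32.7 CPM in WT saline, a fold of 1.03 (95% interval 0.931 to 1.14). Osmr, the oncostatin M receptor of itch and pain neurons, gave 0.22 ± 0.07 (unadjusted p 0.00442), and Lifr 0.14 ± 0.07. The prostaglandin receptor Ptger4 and the tumour necrosis factor receptor Tnfrsf1a were flat at 0.03 ± 0.08 and -0.06 ± 0.11. Over 32 tested genes of inflammatory receptors and prostanoid synthesis, 21 were flat (75.8% of all genes), and for 11 the interval reached beyond 1.5-fold. In this list 1 was higher and 1 lower at an unadjusted p under 0.05, near the 3.53% and 3.43% of all genes. Of 16 tested Stat3 and acute-phase genes, 2 were higher and 2 lower at an unadjusted p under 0.05 (beside 3.53% and 3.43% of all genes).

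Glial genes were flat about as often as all genes tested. Of 15 satellite glia genes 12 were flat, with a median of 0.01, and of 20 Schwann cell and myelin genes 17 were flat, with a median of -0.15. Beside these stand 75.8% of all genes, 97.9% of those between 10 and 100 CPM and 99.3% of those above 100 CPM. Without WT CFA 3 and WT saline 4 the median of the myelin list was 0.01. Mbp, myelin basic protein, averaged 835 ± 140 CPM in WT CFA and 1018 ± 152 CPM in WT saline (-0.28 ± 0.14), and WT CFA 3 was the lowest library at 645 CPM. Gfap, the filament gene that reactive satellite glia are known to induce, stood at 1.94, 1.28, 0.61 and 1.41 CPM in WT CFA 1 to 4 and 1.13, 0.60, 2.09 and 2.85 CPM in WT saline 1 to 4, with full overlap and an interval from -1.31 to 0.65. All 23 cholesterol synthesis genes were flat (75.8% of all genes).

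Skeletal muscle genes summed to 2.95 to 3.06 CPM in the WT CFA libraries, against 48.3, 4.37, 7.56 and 113 CPM in WT saline 1 to 4. All 14 tested muscle genes had a negative log2 fold change, and the 2 highest libraries were WT saline 1 and 4. At an unadjusted p under 0.05 in edgeR 8 were lower (3.43% of all genes), but 0 without WT saline 4 and 0 with robust dispersion. The median of this list was -4.02 in WT, or -3.38 without WT saline 4, and -4.56 in KI. Ribosomal protein genes had a mean log2 CPM of 6.35, 6.30, 6.49 and 6.53 in WT CFA and 6.38, 6.42, 6.51 and 6.93 in WT saline, with WT saline 4 above all others. Their median of -0.16 was -0.03 without WT saline 4. Of 77 tested, 76 had a negative log2 fold change. At an unadjusted p under 0.05 in edgeR 9 were lower (3.43% of all genes), and 0 without WT saline 4. The 74 nuclear genes of oxidative phosphorylation were all flat, with a median of -0.15, and -0.03 without WT saline 4. All 74 had a negative log2 fold change, and 10 were lower at an unadjusted p under 0.05, or 1 without WT saline 4. Rn45s, a ribosomal RNA precursor that poly-A selection removes in part, had 1589, 1439.8, 1564 and 1132 CPM in WT CFA and 1422, 1551, 2926 and 3179 CPM in WT saline. The part of these libraries in the differences given above was not tested beyond the values without them.

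The CFA response of WT ganglia was set beside that of KI ganglia, which share no library with it. In KI, CFA against saline gave 0 calls in edgeR (0.00%) and 881 genes at an unadjusted p under 0.05 (5.68%). The difference of the WT and KI effects gave 0 calls in edgeR (0.00%), 0 in DESeq2 and 0 in limma-voom, and 976 genes at an unadjusted p under 0.05 (6.29%). A difference between the genotypes in the response to CFA was thus not shown for any gene. Over all genes, 46.0% had fold changes of the same sign in WT and KI. Among the 200 genes with the smallest p in WT, 126 (63.0%) had the same sign in KI. The Pearson correlation of the WT and KI fold changes was 0.41 over all genes and 0.56 over these 200. Large fold changes weigh most in this measure, and muscle genes were far lower in both genotypes (list medians -4.02 in WT and -4.56 in KI).

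Some of the WT differences had a like one in KI. Tfrc gave 0.40 ± 0.08 in WT and 0.34 in KI, Cyp26b1 -0.62 and -0.52, and Ecm2 -0.73 and -0.75. Others did not. Ahr gave 0.36 in WT and -0.10 in KI, with the smallest p of the interaction (0.000298, edgeR adjusted p 0.718), and Prokr2 0.56 and -0.04 (interaction p 0.00117). The median of the interferon list was 0.65 in WT and -0.03 in KI, that of antigen presentation 0.22 and -0.02, that of the injury list 0.15 and 0.01, and that of the immediate early list -0.26 and 0.00. The peptidergic list lay at -0.04 in both.

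Within each set of source numbers, with 2 WT CFA and 2 WT saline libraries each, the fit gave 0 calls (0.00%). Unadjusted p-values under 0.05 were found for 499 genes (3.22%) in numbers 1, 2, 4 and 5 and for 2070 genes (13.3%) in numbers 6 to 9, which hold WT CFA 3 and WT saline 4. The difference between the 2 sets gave 0 calls (0.00%) and 706 genes at an unadjusted p under 0.05 (4.55%). Sbno2 was higher in WT CFA in both sets (0.36 and 0.23), as were Pappa (0.99 and 0.84), Tap1 (1.06 and 0.79) and Tfrc (0.35 and 0.44), while Cyp26b1 was lower in both (-0.68 and -0.56). Atf3 (1.33 and -0.27), Cckbr (2.71 and -1.87) and Egr1 (-1.25 and 0.14) took opposite signs. With the set as a covariate, edgeR called 0 genes, at a smallest adjusted p of 0.0805.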

How the data were processed

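Poly-A RNA of pooled lumbar ganglia was sequenced from 150 ng of total RNA per library with 15 PCR cycles and a strand-selecting kit, as single reads of 50 nucleotides, per the labels' protocols. The submitters' processing notes list HTSeq 0.6.1p1, TopHat2 2.1.1, SAMtools 1.5, Bowtie2 2.3.5.1, FastQC and bcl2fastq 2.20, and the build mm10. How they were set, including strand and annotation, is not given in the sources used here, so reads of overlapping or antisense genes cannot be told apart. The values the authors deposited are raw counts per gene, whole numbers without normalization.

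Of 24982 gene entries, 4755 were 0 in all 16 libraries. The 28 entries without an identifier (0.192% of counts) carry gene names and were kept. Identifiers matched a RefSeq table of GRCm38.p6 for 24891 of 24954 (99.7%), which gave the positions. Groups came from the titles. In edgeR 4.0.16 (R 4.3.3), filterByExpr left 15507 genes, and all 16 libraries entered a quasi-likelihood fit with TMM factors and the 4 group means, with a common biological coefficient of variation of 11.8%. Calls used a Benjamini-Hochberg adjusted p under 0.05 over all genes. SEs and 95% intervals are those of the unshrunken coefficients, means are given ± SD over 4 libraries, and list scores are mean log2 CPM with a prior count of 2. The steps were tested on simulated counts. All library pairs within a group differed by more than sampling noise. PCR duplicates cannot be recognized, so the floor of 3 counts covers counting error only.

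Alternatives were RLE and upper-quartile factors, other filters, DESeq2 1.42.0, limma-voom (limma 3.58.1) with quality weights, robust dispersion, the 8 WT libraries alone, a replicate block, the set of source numbers as covariate, other thresholds and bands, and each WT library left out. A fit without WT CFA 3 and WT saline 4 was added after seeing the data. The gene lists, the comparison and the tests were chosen with earlier results of these data known. Genes were named by a rule (8 genes set by the design, the 10 smallest p, the 15 smallest p in each direction at a mean of at least 1 CPM, the 2 smallest p and the 3 most abundant flat members of each list, and the 10 smallest p of the interaction and of the difference between sets of source numbers). Not all of these are printed, and the other members of the lists named in the text were chosen after their values were seen. Some genes that the rule names are not reported here.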

Additional observations from a re-analysis of the deposited data

Results flagged for a closer look

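For 54 genes and lists printed or averaged above, the 4 WT CFA and the 4 WT saline libraries were each searched for 1 library far from the other 3 by Dixon's test. It marked 12 of 108 groups (11.1%), where chance gives about 1 in 20, and genes of 1 list share their outlying library, so the marks are not independent.

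WT CFA 2 was the outlying library in 3 interferon genes. It had 135 CPM of Stat2, against 78.1 to 85.5 CPM in the other WT CFA libraries. It had 34.6 CPM of Irgm2, against 18.6 to 19.7 CPM, and 38.4 CPM of Gbp7, against 17.0 to 20.0 CPM. Gbp7 was also low in WT saline 2, at 13.6 CPM, against 16.0 to 16.3 CPM in the other WT saline libraries.

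WT saline 4 was the outlying library in 5 groups. The neuropeptide genes Calca and Tac1 were high there, with 1792 CPM of Calca against 1025 to 1123 CPM in the other WT saline libraries, and 367 CPM of Tac1 against 247 to 263 CPM. Ret was low there, at 945 CPM against 1119.7 to 1132 CPM, as was the mean log2 CPM of the sodium, calcium and HCN channel list, at 6.98 against 7.29 to 7.34. Wdr92 stood at 36.1 CPM, against 22.4 to 23.2 CPM.

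The other 3 marks were single genes. Adgre1 had 10.6 CPM in WT saline 2, against 1.44 to 2.55 CPM in the other WT saline libraries. Ptpn9 had 142 CPM in WT CFA 3, against 126 to 128 CPM, and Ahr 19.2 CPM in WT CFA 4, against 22.6 to 22.9 CPM in the other WT CFA libraries.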

How the results depend on the processing

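With edgeR the count of called genes was 0 under every change of size factors, filter, dispersion, threshold (adjusted p of 0.1 or 0.01), with the set of source numbers as covariate, in the 8 WT libraries alone and without WT CFA 3 and WT saline 4 together. It ran from 0 to 2 when single WT libraries were left out, with the 2 calls, Tap1 and Tfrc, found without WT CFA 1. DESeq2 called 24 genes and limma-voom 1, and the cause of this difference between tools was not tested. Interaction calls were 0 in all alternatives, single libraries left out included. The number of genes at an unadjusted p under 0.05, 1079, ranged from 590 without WT CFA 3 and WT saline 4 to 1940 without WT saline 2. In the 8 WT libraries alone, where the KI libraries do not enter the estimate of spread, it was 654 of 15003. The smallest edgeR adjusted p there was 0.812, against 0.141 in the main fit. Flat genes numbered 5881 with a band of 1.2-fold and 13502 with one of 2-fold. They ranged from 11216 to 11685 with single libraries left out.

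The replicate numbers of the titles are not stated to pair libraries. Same-numbered WT CFA and WT saline libraries had correlations of their deviations of -0.01, 0.13, -0.04 and 0.11, so they were not taken as pairs. With the replicate block, edgeR called 0 genes on the 8 WT libraries, at a smallest adjusted p of 0.176.

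For 123 named genes, 2314 fits of a gene under an alternative were examined, and the gene was called in only 22 of them. None changed sign while called, which so few calls made likely beforehand. The sign changed by more than 1 SE without a call in 23, of which 10 came without WT CFA 3 and WT saline 4. Of 45 lists, 9 had a median that moved by more than 1 SD of the list score under at least 1 alternative. Of 102 named flat genes 91 were flat under all 17 alternatives in which this was computed (DESeq2 and limma-voom were not among them). The median of the interferon list was 0.30 without WT CFA 2, its lowest, and 0.82 without WT CFA 1, its highest. Of 1818 genes below 1 CPM, 0 were flat.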
